A study of Mus musculus with 7 samples.

Results

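RNA of extracellular vesicles (EVs) was set against RNA of the cells that released them, in RAW264.7 cells, a mouse macrophage line, that carried the control hairpin shNS. The comparison was defined by 2 library columns, EV shNS and WC shNS (whole cell), out of 7 libraries in the series, and it rests on 1 library a side. The study as a whole concerned Dis3l2, an exoribonuclease that degrades RNA from its 3′ end. The other libraries came from a line with a hairpin against Dis3l2 (shDis3l2; EVs and cells) and from EVs of shDis3l2 cells with an empty vector (Vector), re-expressed Dis3l2 (Dis3l2r) or its D389N form.

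All 7 groups were kept in doxycycline at 1 µg/mL, with 3 days of induction. Per the labels, EVs were taken from the medium of 15 flasks a preparation, after 24 h in serum depleted of vesicles. They were separated by density on sucrose and digested with 20 U of micrococcal nuclease for 30 min before RNA extraction, so RNA outside membranes was exposed to the enzyme. Whole-cell RNA was depleted of rRNA, and the labels state no such step for EV RNA. Depletion and compartment therefore cannot be told apart for any RNA that the depletion touches. The labels do not say whether a hairpin line is 1 clone. Both kinds of library were made from 50 ng of RNA with a thermostable enzyme that comes from group II introns, switches templates, and can read through folded RNAs such as tRNA.

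EVs are membrane-bound particles that carry protein and RNA out of the cell. Transfer RNAs (tRNAs) bring amino acids to the ribosome. They are named here by amino acid and anticodon, and they are made by RNA polymerase III, as are the rodent 4.5S RNA and the short interspersed repeats (SINEs) B1 and B2. Some tRNA genes hold an intron just after the anticodon, which a dedicated endonuclease removes. Their unspliced and spliced forms can be listed apart, but a read that covers neither the intron nor the junction could belong to either.

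The table gave estimated counts for 3894 whole RNAs, namely 224 tRNA genes, 15 spliced tRNAs, 15 SINE entries, the 4.5S RNA and 3639 Ensembl transcripts. It also gave 232768 intron, 210777 exon and 133400 UTR pieces. The 224 tRNA gene entries were called unspliced below, to set them apart from the spliced entries. Only 24 of them belong to the 4 families with spliced entries, so elsewhere the word says nothing about splicing. Classes followed entry names, so a tRNA listed under an Ensembl ID, as a mitochondrial one could be, counted as a transcript. Depth on whole RNAs was 23667929 counts in shNS EVs and 37041326 counts in shNS cells, and levels below are counts scaled to that total (CPM, for 1000000 counts). An RNA was called measured with at least 100 counts over both libraries. It was called higher or lower in EVs where the ratio was at least 2-fold and its exact 95% interval excluded 1. With 1 library a side this rule is no test, and the intervals cover counting error only. Each value is also a share of its library, so more of one RNA and less of the others cannot be told apart.

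The shNS cell library stood apart from the other cell library in its pieces of longer transcripts. It had 27300 counts on exon pieces and counts on 19433 intron pieces, whereas shDis3l2 cells had 555760 counts and 115493 intron pieces. Results on pieces are therefore given with the shDis3l2 pair beside them. Gene names could not be joined to the transcripts, because 0 of 3639 IDs were matched in the reference tables used here. The macrophage identity and the level of Dis3l2 were for that reason not checked.

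Among the whole RNAs, entries named as tRNA held most counts of EVs. The 224 tRNA gene entries held 73.8% of EV counts and 13.3% of cell counts, and spliced tRNAs held 1.22% of EV counts and 0.410% of cell counts. Of the 17473100 counts on gene entries in shNS EVs, 40968 fell on the 24 entries of families with spliced forms. The 4.5S RNA came to 4.78% in EVs and 0.195% in cells. SINE entries, the rarest class, came to 0.154% in EVs and 0.00606% in cells. Transcripts ran the other way, with 20.0% of EV counts and 86.1% of cell counts. The shDis3l2 pair had the same order, with 69.9% on tRNA gene entries in EVs and 8.84% in cells.

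**Figure D1:**
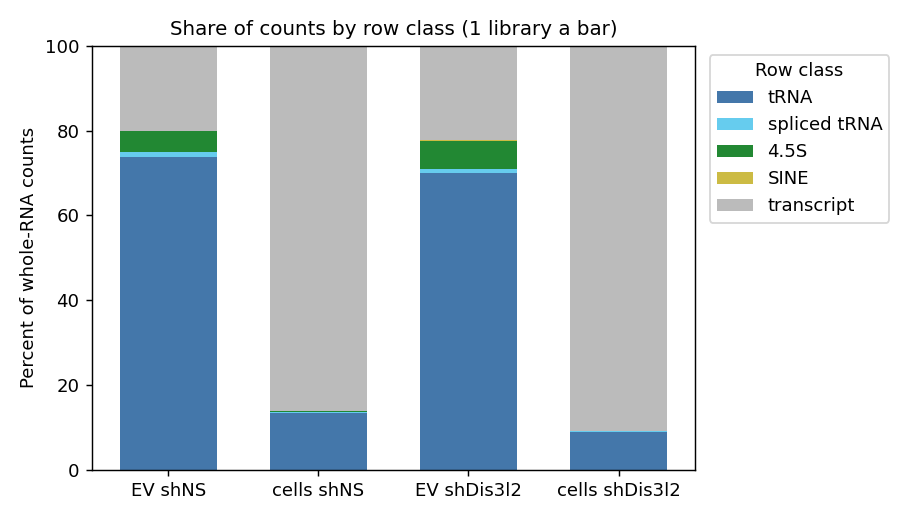
Percent of whole-RNA counts (y axis) in each row class, 1 library a bar, for EVs and cells of the shNS and shDis3l2 lines. Entries of tRNA genes fill 73.8% of the shNS EV bar and 13.3% of the shNS cell bar. Transcripts, meaning entries listed by Ensembl ID, fill 20.0% of the EV bar and 86.1% of the cell bar.

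Of 531 RNAs measured, 170 (32%) were higher in shNS EVs than in shNS cells and 316 (59.5%) were lower. tRNAs made up most of the RNAs that were higher, and transcripts most of those that were lower. Of 164 unspliced tRNAs 128 were higher and 13 lower, of 14 spliced tRNAs 7 were higher and 0 lower, and of 6 SINE entries 6 were higher. Among 346 transcripts 28 were higher and 303 lower. The median log2 ratio of EVs over cells was 1.98 for unspliced tRNAs, 1.17 for spliced tRNAs and 5.45 for SINE entries, against −5.85 for transcripts and −3.54 over all measured RNAs, with entries at 0 counts set to 3. These ratios depend on the scale. On the totals of the intron pieces, which shift every log2 ratio by −1.34, 96 RNAs were higher and 346 lower. The exon totals shift every ratio by −4.48, and with them 13 were higher and 480 lower; the cell exon total they rest on is the 27300 counts above. DESeq2 size factors (a shift of 1.10), TMM (−0.26) and the total of all rows (0.26) left between 154 and 191 RNAs higher and between 286 and 324 lower.

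**Figure D2:**
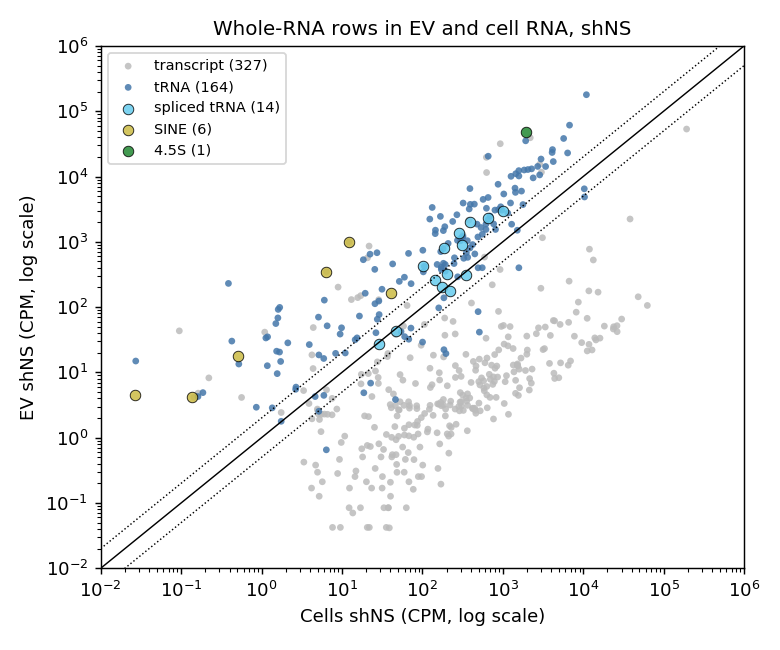
Level of each measured whole RNA with counts in both libraries, in shNS cells (x axis, CPM, log scale) and shNS EVs (y axis, CPM, log scale), coloured by class; the solid line marks equal levels and the dotted lines 2-fold either way. Most tRNAs and all 6 SINE entries lie above the upper dotted line and most transcripts far below the lower one.

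In the shNS pair glycine, lysine and arginine tRNAs were the most enriched in EVs. Summed over its genes, tRNA-Gly stood at 215718 CPM in EVs and 17989 CPM in cells, a log2 ratio of 3.58. Lysine tRNA stood at 74440 CPM in EVs and 8464 CPM in cells (3.14), and arginine tRNA at 104079 CPM in EVs and 13412 CPM in cells (2.96). Of 22 amino acid groups measured, 19 (86.4%) were higher in EVs and 0 lower, on the scale of all whole RNAs. This direction held under DESeq2 factors (21 higher) and TMM (19 higher). With intron totals only 8 were higher and 2 lower, and with exon totals 0 were higher and 21 lower.

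The next groups were histidine (2.64), glutamine (2.55), proline (2.54), glutamate (2.41), leucine (2.37) and serine (2.30). Between 1.59 and 2.13 lay phenylalanine, selenocysteine, aspartate, cysteine, asparagine, initiator methionine, threonine, isoleucine, valine and tryptophan, in that order. Of the 22, 3 stood below the 2-fold limit. Elongator methionine tRNA had a log2 ratio of 0.63 and alanine tRNA one of 0.20. Tyrosine tRNA was at 954 CPM in EVs and 1506 CPM in cells, a log2 ratio of −0.66 that turned to 0.44 under DESeq2 size factors. In the shDis3l2 pair these 3 stood at 1.46, 0.54 and −0.68, and they were again the lowest of the 22. Glycine (4.58) and lysine (4.20) again led there, but arginine (2.71) stood below proline (3.60), among others.

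**Figure D3:**
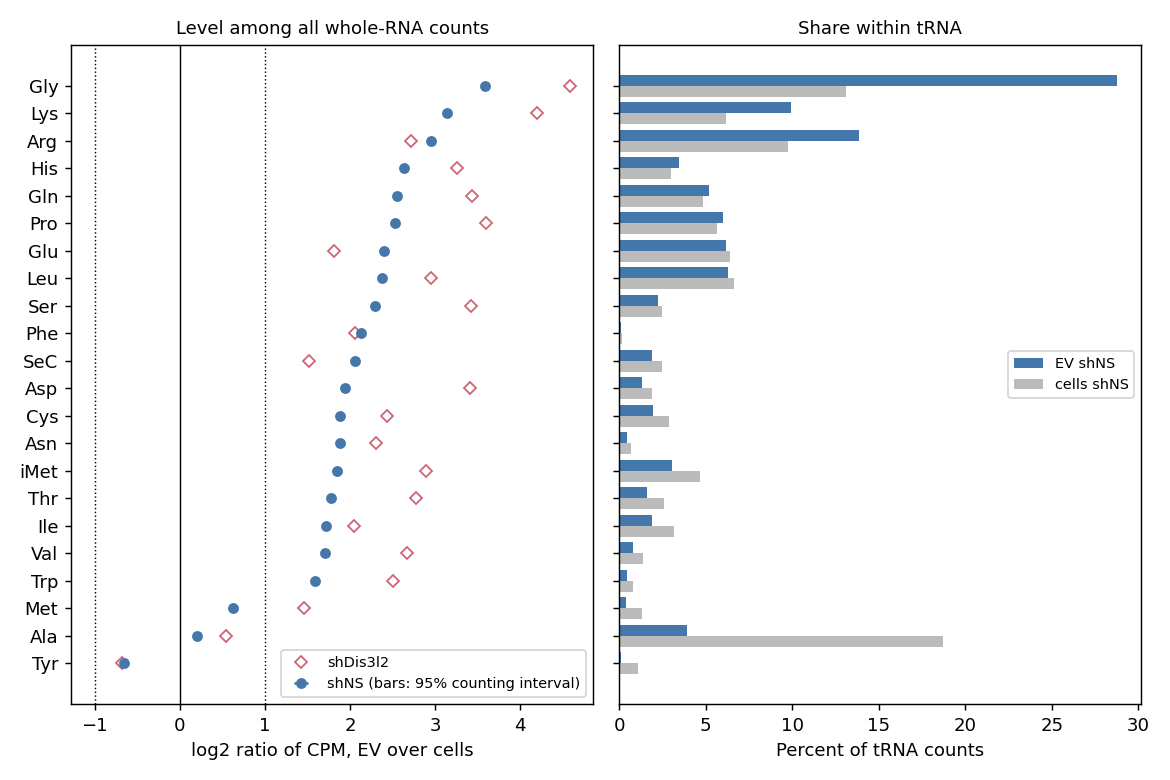
tRNA by amino acid. Left, log2 ratio of CPM in EVs over cells for the shNS pair (filled) and the shDis3l2 pair (open), with dotted lines at 2-fold. The 95% counting intervals of the shNS pair are narrower than most markers. Right, percent of counts on entries named as tRNA, in shNS EVs and shNS cells. On the scale of all whole RNAs 19 of 22 groups are higher by at least 2-fold (8 with intron totals, 0 with exon totals). In share glycine stands at 28.7% in EVs and 13.1% in cells, alanine at 3.93% in EVs and 18.7% in cells.

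Entries named as tRNA held a larger share of EV counts than of cell counts. The make-up within these entries was therefore read separately, as percent of their counts (tRNA counts below). A tRNA listed under an Ensembl ID is left out of them. Glycine tRNA made up 28.7% of tRNA counts in shNS EVs and 13.1% in shNS cells. Alanine tRNA showed the opposite, with 3.93% in EVs and 18.7% in cells. Arginine tRNA had 13.9% in EVs and 9.77% in cells, and lysine tRNA 9.92% in EVs and 6.17% in cells. A larger share of tRNA in EVs than in cells was seen for 6 of the 22 groups. On this scale 1 group (glycine) was higher by the 2-fold rule and 3 were lower (tyrosine at −3.11, alanine at −2.25 and elongator methionine at −1.82).

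For alanine and glycine the other EV libraries fell on the same side. The alanine share was 3.86%, 4.52%, 4.65% and 4.05% in the shDis3l2, Vector, Dis3l2r and D389N EVs, and 20.7% in shDis3l2 cells. The glycine share in those EVs was 33.6%, 27.9%, 26.7% and 20.9%, and 10.9% in shDis3l2 cells. Arginine did not hold: shDis3l2 cells had 15.5%, above every EV library (12.4% to 14.5%). Across all 7 libraries, glycine and lysine were the 2 groups whose share lay in all 5 EV libraries above both cell libraries. For 8 groups every EV library lay below both cell libraries; these were alanine, tyrosine, methionine, tryptophan, valine, isoleucine, asparagine and phenylalanine. Some of these lay close to overlap, such as lysine, at 6.37% in D389N EVs and 6.17% in shNS cells, and phenylalanine, at 0.144% in Vector EVs and 0.152% in shNS cells.

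The same counts were also summed by anticodon. Of 49 anticodon families measured, 43 (87.8%) were higher in shNS EVs and 1 (2.04%) was lower. With intron totals 18 were higher and 5 lower, and with exon totals 1 was higher and 45 were lower. The largest ratios were those of Ser-GGA (6.14), Arg-CCG (4.35), Gly-TCC (4.03) and Ser-TGA (3.60). Ser-GGA was rare, at 30.2 CPM in EVs and 0.427 CPM in cells. The family called lower was Gly-ACC, at 6.85 CPM in EVs and 22.7 CPM in cells (log2 ratio −1.73), although it shares its amino acid with the most enriched group. Under DESeq2 size factors 0 families were lower, and in the shDis3l2 pair Gly-ACC, at −0.92, stayed within 2-fold.

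Alanine tRNA divided by anticodon in the same way. Ala-TGC, the main alanine tRNA of cells, was at 11719.6 CPM in EVs and 20786 CPM in cells, a log2 ratio of −0.83. The other anticodons of alanine were higher in EVs, Ala-AGC by 2.06 and Ala-CGC by 1.38 on the log2 scale. Within Ala-TGC, the gene entry tRNA-Ala-TGC-4-1 had a log2 ratio of −1.10 and tRNA-Ala-TGC-1-1 one of 2.26. Ile-TAT (−0.84), Tyr-GTA (−0.66), Pro-AGG (−0.60) and Met-CAT (0.63) also stayed inside the 2-fold limit.

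Glycine with the anticodon TCC was the most abundant whole RNA of EVs. The gene entry tRNA-Gly-TCC-1-1 had 179037 CPM in shNS EVs and 200733, 173671, 148544 and 114556 CPM in the shDis3l2, Vector, Dis3l2r and D389N EVs, against 10958 CPM in shNS cells and 4818 CPM in shDis3l2 cells. All 5 EV libraries lay at least 10-fold above either cell library. Its log2 ratio in the shNS pair was 4.03, and it alone held 23.9% of tRNA counts in EVs and 7.98% in cells. In cells it ranked 22nd among whole RNAs.

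Another 5 tRNAs stood among the 10 most abundant RNAs of shNS EVs. tRNA-Lys-CTT-3-1 was at 61188 CPM in EVs and 6759 CPM in cells (log2 ratio 3.18), and tRNA-Glu-CTC-1-1 at 38262 CPM in EVs and 5711 CPM in cells (2.74). tRNA-Arg-CCG-3-1 was at 35217 CPM in EVs and 1925 CPM in cells (4.19). The last 2 of the 5 were tRNA-His-GTG-2-1 (2.64) and tRNA-Pro-TGG-2-1 (2.51). All 6, tRNA-Gly-TCC-1-1 included, were also higher in the shDis3l2 pair, with log2 ratios between 2.00 for tRNA-Glu-CTC-1-1 and 5.38 for tRNA-Gly-TCC-1-1. The 10 most abundant tRNA entries held 58.9% of tRNA counts in shNS EVs and 48.4% in shNS cells. The other EV libraries had between 53.3% and 61.5% and shDis3l2 cells 52.6%, so the compartments nearly met.

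Genes of one anticodon often differed from each other. In 33 of 40 families with at least 2 measured unspliced genes, the lowest and the highest log2 ratio lay more than 1 apart. For His-GTG the ratios ran from 2.64 for tRNA-His-GTG-2-1 to 9.10 for tRNA-His-GTG-3-1, and for Ile-AAT from 2.77 for tRNA-Ile-AAT-1-1 to 9.22 for tRNA-Ile-AAT-3-1. The extremes were rare genes. In EVs tRNA-His-GTG-3-1 had 353 counts, against 1 in cells (95% interval 6.62 to 14.4), and tRNA-Ile-AAT-3-1 had 5456, against 14.4 in cells. tRNA genes of a family can be nearly identical in sequence, and the authors' counting could split their reads, so values of single genes are uncertain, more so than the sums over a family.

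After those, the largest ratios of single unspliced tRNAs were at tRNA-Ser-GGA-1-1 (6.14), tRNA-Cys-GCA-8-1 (5.88) and tRNA-Arg-TCT-1-1 (5.84). In all 5 EV libraries each of these 5 lay above both cell libraries. tRNA-Ile-AAT-3-1, for instance, had 231 CPM in shNS EVs and 321, 380, 684 and 777 CPM in the shDis3l2, Vector, Dis3l2r and D389N EVs. In shNS cells it had 0.388 CPM and in shDis3l2 cells 0.165 CPM.

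The tRNAs that were lower in EVs were mostly unspliced forms of genes with an intron. In 4 families, Leu-CAA, Ile-TAT, Tyr-GTA and Arg-TCT, the table lists spliced forms apart. Their unspliced entries made up 9 of the 13 tRNAs lower in EVs: of 20 measured, 9 were lower and 4 higher, with a median log2 ratio of −0.74. Of the 144 measured unspliced tRNAs of other families, 4 were lower and 124 higher, with a median of 2.08. Those 4 were tRNA-Ala-TGC-4-1, tRNA-Gly-ACC-1-1, tRNA-Lys-CTT-14-1 and tRNA-Val-AAC-1-1, with log2 ratios from −1.73 to −1.02.

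The lowest ratio was that of tRNA-Leu-CAA-4-1 in its unspliced form, at 41.4 CPM in shNS EVs and 511 CPM in shNS cells (log2 ratio −3.63). The other EV libraries had between 44.9 and 77.7 CPM and shDis3l2 cells had 456 CPM, so no EV library reached either cell library. The spliced form of the same gene ran the other way, at 1383 CPM in shNS EVs and 282 CPM in shNS cells (2.29). Unspliced tyrosine tRNAs followed, with −3.59 for tRNA-Tyr-GTA-4-1, −3.34 for tRNA-Tyr-GTA-1-4, −3.29 for tRNA-Tyr-GTA-1-2 and −3.06 for tRNA-Tyr-GTA-3-2. tRNA-Tyr-GTA-1-2 had 15.4 counts in EVs and 237 in cells, and in the shDis3l2 pair its ratio of −0.91 stayed within 2-fold.

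Spliced tRNAs were led by leucine. All 4 spliced Leu-CAA genes were higher in EVs, with log2 ratios of 2.38, 2.29, 2.09 and 1.86, and the 4 together stood at 6190 CPM in EVs and 1420 CPM in cells (2.12). Spliced Arg-TCT was also higher, by 1.58 as a family and by 2.08 for the gene Arg-TCT-2-1. Spliced Ile-TAT (0.73) and spliced Tyr-GTA (−0.11) stayed within 2-fold. All 7 spliced tRNAs called higher were higher again in the shDis3l2 pair.

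Put as the unspliced share of each family's counts, EVs had less of the unspliced form over the 4 families together, 12.5% in shNS EVs and 52.2% in shNS cells. The other EV libraries lay between 20.8% and 24.1%, and shDis3l2 cells at 59.7%, so the 5 EV libraries and the 2 cell libraries did not overlap. Leu-CAA showed the widest difference, 8.24% in shNS EVs and 53.0% in shNS cells. Ile-TAT was at 58.4% in EVs and 86.0% in cells.

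The other pair of families was less uniform. Tyr-GTA was at 24.7% unspliced in shNS EVs and 48.5% in shNS cells, but D389N EVs had 62.9% and shDis3l2 cells 38.0%, so the compartments overlapped. Arg-TCT went the other way, with 2.63% in shNS EVs and 1.19% in shNS cells. Of the 15 genes listed in both forms, 11 had a lower unspliced share in shNS EVs than in shNS cells. In the shDis3l2 pair 8 did so, and 7 did so in both lines. Among the 11, tRNA-Arg-TCT-5-1 hardly differed (9.09% in shNS EVs, 9.10% in shNS cells). tRNA-Tyr-GTA-5-1, among the 15, had 0 spliced counts in both shNS libraries, so its share could not differ there. Counting these 15 genes alone, the share was 9.30% in shNS EVs and 45.9% in shNS cells.

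**Figure D4:**
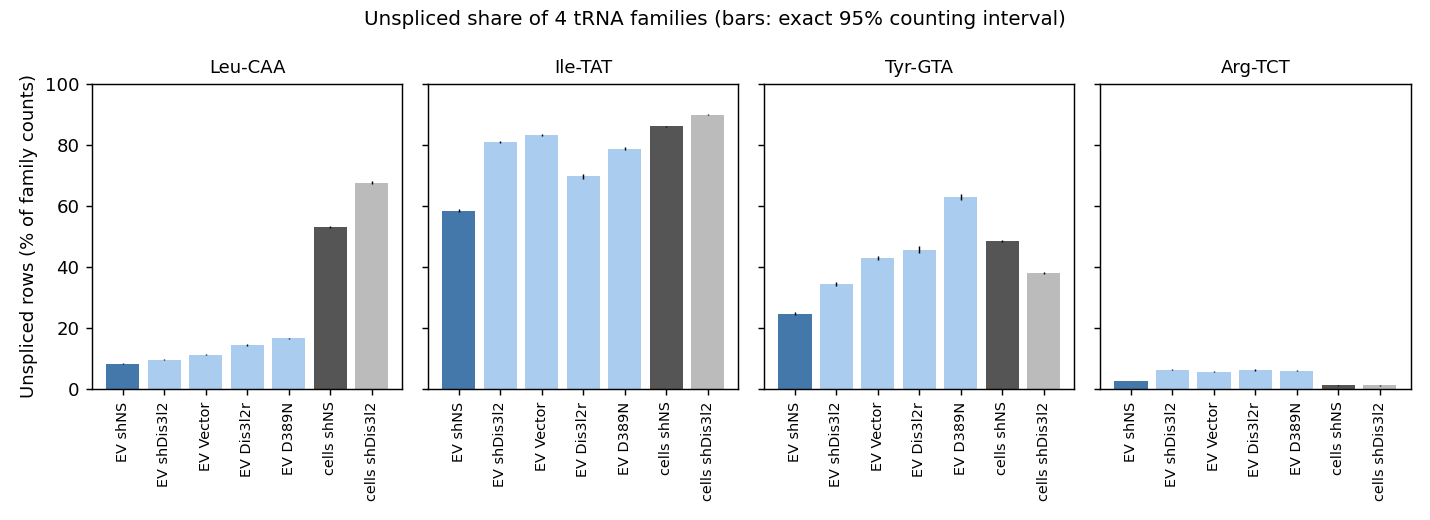
Unspliced entries as percent of family counts (y axis, bars of 95% counting interval) in the 5 EV libraries and, at the right of each panel, the 2 cell libraries. Leu-CAA is at 8.24% in shNS EVs and 53.0% in shNS cells; Arg-TCT is at 2.63% in shNS EVs and 1.19% in shNS cells.

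The 4.5S RNA was the 4th most abundant whole RNA of shNS EVs and the 72nd of shNS cells. It had 47809.9 CPM in shNS EVs and 66909.7, 62552, 50611.5 and 83012.5 CPM in the shDis3l2, Vector, Dis3l2r and D389N EVs. In shNS cells it had 1951 CPM and in shDis3l2 cells 865 CPM. Every EV library was thus at least 20-fold above either cell library, and the log2 ratio was 4.61 in the shNS pair and 6.27 in the shDis3l2 pair.

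SINE entries, RNAs read from repeats of the mouse genome, were few but strongly weighted to EVs. The 2 entries of the B1 subfamily B1_Mus2 held most of their counts. One had 996 CPM in shNS EVs and 12.3 CPM in shNS cells (log2 ratio 6.34). The second had 349 CPM in EVs and 6.40 CPM in cells (5.77). In the remaining EV libraries they stood at 750 to 1755 CPM and at 419 to 503 CPM, and in shDis3l2 cells at 29.8 and 12.4 CPM.

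SINE_B1 had a log2 ratio of 5.13 and SINE_B2, the best covered of the B2 entries with 3886 EV and 1509 cell counts, one of 2.01. The other entries rested on few counts. SINE_B4 was counted 108 times in EVs and 1 time in cells, giving 7.40 on the log2 scale with a 95% interval from 4.89 to 12.7, and 2.26 in the shDis3l2 pair. SINE_B2_Mm2 had 98 counts in EVs and 5 in cells (4.94). Of the 15 SINE entries, 8 carried the counts of a transcript entry to within 0.5 counts in every library (both B1_Mus2 entries among them), so these RNAs appear in both classes.

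Transcripts, meaning every entry listed by Ensembl ID whatever its RNA type, made up most of the cell library and were mostly lower in EVs. Of the 303 transcripts lower in EVs, 282 were lower at least 4-fold, 255 at least 16-fold and 166 at least 64-fold, with 0 counts in EVs set to 3. Together these 303 held 6.28% of EV counts and 84.9% of cell counts. Of the 346 measured, 17 had no count in EVs and 2 none in cells.

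At the top of the cell library, 21 transcripts reached 10000 CPM in cells. All 21 were lower in EVs, 17 of them at least 64-fold, and together they held 5.80% of EV counts and 63.5% of cell counts. ENSMUST00000082391 had 106 CPM in shNS EVs and 62742 CPM in shNS cells, a log2 ratio of −9.21. In the other EV libraries it had between 112 and 168 CPM and in shDis3l2 cells 15362 CPM, well above every EV library. These IDs could not be paired with gene names, so neither a role nor an RNA type is given. The 21 may be of few RNA types and cannot be read as mRNAs or as cell transcripts at large.

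The most abundant transcript of cells, ENSMUST00000083988, was an exception in size. It had 53352 CPM in shNS EVs and 193042 CPM in shNS cells (log2 ratio −1.86), and it was the single RNA among the 10 most abundant of both libraries. The other EV libraries ranged from 20834.5 to 82998 CPM, and shDis3l2 cells had 460662 CPM. All EV libraries lay below both cell libraries, but they differed among themselves by more than 3-fold. Its log2 ratio was −0.76 under DESeq2 size factors and −3.75 in the shDis3l2 pair.

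A small set of transcripts was high in EVs. The 28 called higher held 13.6% of EV counts and 1.11% of cell counts. In EVs 7 transcripts reached 10000 CPM, and 6 of these were higher in EVs by 1.95 to 5.10 on the log2 scale. ENSMUST00000083767 had 39227 CPM in shNS EVs and 2194 CPM in shNS cells (4.16), with 26087 to 46338 CPM in the other EV libraries and 2287 CPM in shDis3l2 cells. ENSMUST00000083211 had 31783 CPM in shNS EVs and 930 CPM in shNS cells (5.10). Its EV libraries spanned 31783 to 35820.4 CPM and shDis3l2 cells had 1192 CPM, a range in EVs far narrower than the distance to cells.

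The shDis3l2 line gave a second EV and cell pair that shares no library with the shNS pair. Of 490 RNAs measured in both with counts in all 4 libraries, 471 had a ratio of the same sign. By class, 121 of the 128 unspliced tRNAs higher in shNS EVs were higher there too, as were 24 of the 28 transcripts. Of the RNAs lower in shNS EVs, 7 of 13 unspliced tRNAs and 288 of 303 transcripts were again lower. The median tRNA ratio was 1.99 in the shNS pair and 2.66 in the shDis3l2 pair over the 160 tRNAs compared.

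To set the difference beside the spread between libraries, the 5 EV libraries were fitted against the 2 cell libraries with edgeR's quasi-likelihood test. These are different genotypes, not replicates, and the fit includes the shNS pair itself. It called 200 of 642 RNAs higher (31.2%) and 306 lower (47.7%) at a Benjamini-Hochberg adjusted p under 0.05. Of the 170 RNAs higher in the shNS pair, 160 were called higher in the fit, and of the 315 lower ones tested, 298 were called lower. None was called in the opposite direction. By class the fit called 122 of the 128 unspliced tRNAs, 7 of 7 spliced tRNAs, 6 of 6 SINE entries and 24 of 28 transcripts on the higher side, and 8 of 13 unspliced tRNAs and 290 of 302 transcripts on the lower side.

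For tRNA-Gly-TCC-1-1 the edgeR fit gave a log2 fold change of 4.48 ± 0.56 with a Benjamini-Hochberg adjusted p of 9.11e-06. The value after ± is an approximate SE, the size of the fold change divided by the square root of the F statistic. For the 4.5S RNA it gave 5.45 ± 0.61 (edgeR adjusted p of 3.44e-06). Unspliced tRNA-Leu-CAA-4-1 came to −3.18 ± 0.43 (edgeR adjusted p of 1.95e-05), while tRNA-Tyr-GTA-1-2, at −1.78 ± 0.93, was not called (edgeR adjusted p of 0.0959). tRNA-Gly-ACC-1-1, the entry behind the lower glycine family, was also not called (edgeR adjusted p of 0.192). tRNA-Ala-TGC-4-1 was called lower with an edgeR adjusted p of 0.0163.

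Intron pieces were far more widely covered in EVs. Counts fell on 84737 pieces in shNS EVs and on 19433 in shNS cells, and the set held 22.6% of the counts of all entries in EVs and 7.43% in cells. Measured pieces numbered 6487, of which 2490 had 0 counts in cells and 46 had 0 counts in EVs. Those 2490 reached the minimum through EV counts alone, so their call was fixed by it. With each library scaled to its own intron total, 6059 of the 6487 (93.4%) were higher in EVs and 255 (3.93%) lower. The shDis3l2 pair did not show this: 2369 of 10064 pieces were higher and 4815 lower. The shDis3l2 cell library had counts on 115493 intron pieces, more than any EV library, so the direction of the intron set rests on which cell library is used.

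Concentration of the counts differed in the same manner. The 100 most covered intron pieces held 65.7% of intron counts in shNS EVs and 95.2% in shNS cells, but 60.6% in shDis3l2 cells. In the other EV libraries the value lay between 57.4% and 73.5%, with shDis3l2 cells inside that range and shNS cells above it.

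**Figure D5:**
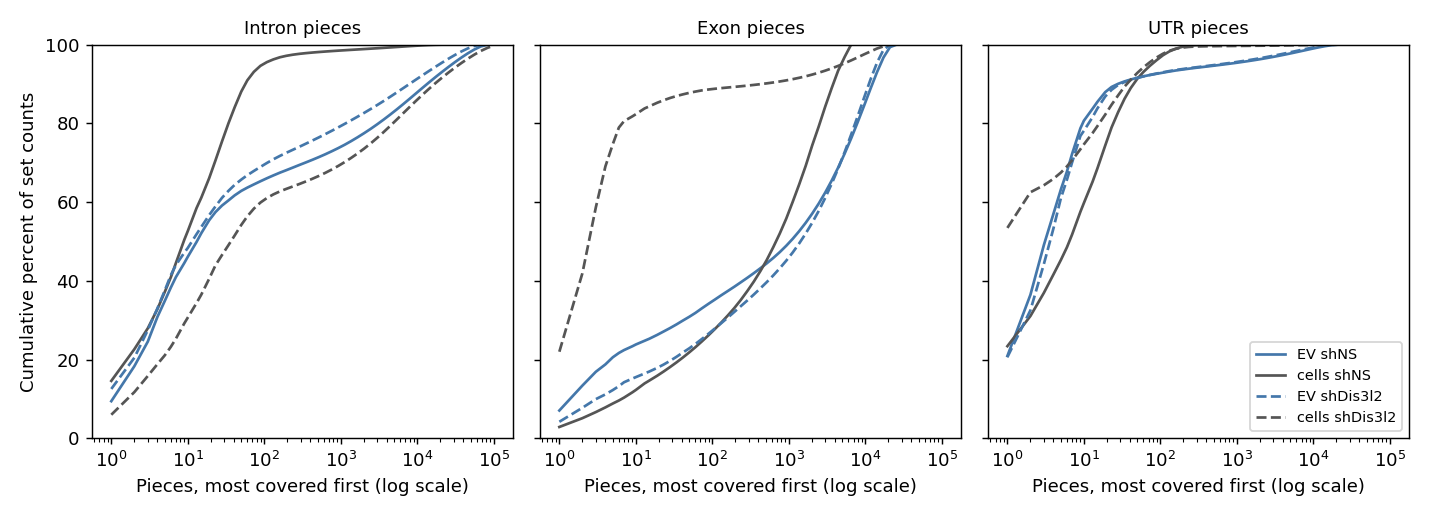
Cumulative percent of a set's counts (y axis) held by its most covered pieces (x axis, number of pieces, log scale), for intron, exon and UTR pieces in EVs (blue) and cells (grey) of the shNS (solid) and shDis3l2 (dashed) lines. In the intron panel the top 100 pieces hold 65.7% in shNS EVs and 95.2% in shNS cells.

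A few heavily covered intron pieces kept their side in both lines. The most covered one of shNS EVs had 826723 counts there, 9.42% of the set, and 58784 counts in shNS cells, for a log2 ratio of 3.12 and of 5.31 in the shDis3l2 pair. Another had 0 counts in shNS EVs and 287867 in shNS cells, which is at least 155565-fold lower against a floor of 3 counts per library; it had 0 counts in shDis3l2 EVs and 378220 in shDis3l2 cells. The other 3 EV libraries held between 2.10 and 13.6 counts of it. By contrast, the most covered intron piece of shNS cells had 358914 counts in EVs and 788993 in cells (−1.83), but a ratio of 0.15 in the shDis3l2 pair.

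At the minimum count set above, more exon pieces were higher than lower in EVs on both scales tried and in both lines. Their number differed widely, and a lower minimum reversed the direction in the shNS pair. Exon pieces had 389884 counts in shNS EVs and 27300 in shNS cells, and 251 pieces were measured. Of these, 44 had 0 counts in cells and 0 had 0 counts in EVs, so the minimum was reached largely through EV counts. On the set's own totals 105 (41.8%) were higher in EVs and 50 (19.9%) lower, whereas on the whole-RNA totals 239 were higher and 7 lower. In the shDis3l2 pair, on the set's own totals, 221 of 287 were higher and 61 lower. With a minimum of 20 counts, the shNS pair had 221 pieces higher and 322 lower on the set's own totals. The best covered exon piece of EVs had 27485 counts in shNS EVs and 39.3 in shNS cells, a log2 ratio of 5.62, and a ratio of −2.00 in the shDis3l2 pair, where cells had 93185 counts. The other 4 EV libraries held between 12179.7 and 20813 counts of it, a narrower range than that of the 2 cell libraries.

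UTR pieces repeat the transcripts in part. Of 133400 pieces, 3634 belong to transcripts also listed whole, and these held 78.1% of UTR counts in shNS EVs and 98.8% in shNS cells. On their own totals, 41 of the 312 measured among them were higher in EVs and 237 lower, the direction of the transcripts. Of all 833 UTR pieces measured, 534 (64.1%) were higher in EVs and 254 (30.5%) lower on the set's own totals. Among these 833, 137 had 0 counts in cells and 31 had 0 counts in EVs. In the shDis3l2 pair 559 of 889 were higher and 274 lower. Pieces of transcripts that are not listed whole held 21.9% of UTR counts in shNS EVs and 1.17% in shNS cells. On their own totals, 401 of the 521 measured among them were higher and 46 lower. In the other EV libraries their share was 22.5% to 32.2%, and in shDis3l2 cells it was 1.26%. The EV and cell libraries did not overlap in that share.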

How the data were processed

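RNA of 7 RAW264.7 libraries (5 EV, 2 whole-cell) was read, 1 library a group. The authors deposited 1 table of expected counts per row, estimated counts as Salmon gives, with no scaling between libraries. Novoalign, Salmon, cutadapt and UMI-tools, and the builds mm10 and GRCm38, are named per the submitters' processing notes. Not given in the sources used here are their versions, their order, and whether the 12 nt random sequence served to remove duplicates. Multimapping reads of near-identical tRNA genes, or of both forms of a gene, could be split among them by such counting. Libraries had 15 PCR cycles.

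Counts were scaled to the total of each library's whole-RNA rows (pieces: to the total of their set). Ratios have exact conditional binomial intervals and shares Clopper-Pearson intervals, both at 95% and for counting error only; counts were rounded for intervals and fits. A row needed 100 counts over both libraries. edgeR 4.0.16 (quasi-likelihood, filterByExpr, Dis3l2 class as covariate, 4 residual degrees of freedom) was fitted to all 7 libraries. Benjamini-Hochberg adjustment was over all rows tested, and DESeq2 1.42.0 was an alternative. A trial on simulated counts used TMM and no filter, unlike the reported fit, so it did not test that fit as run. The work ran in R 4.3.3 and in Python 3.11.15 with scipy 1.17.1, pandas 2.3.3 and matplotlib 3.10.9. Named are the 10 most abundant rows of each library, the 5 largest ratios either way per class, every amino acid group, and the leading pieces, with at most 2 transcript IDs a direction. The members, lists and rules were chosen with earlier results of these data known. Lists by gene symbol and cell type markers had no result, because no transcript ID was matched to a name. Sets of pieces overlap the whole-RNA rows and were not summed with them, except in shares of all rows.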

Additional observations from a re-analysis of the deposited data

Results flagged for a closer look

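In 2 RNAs the EV over cell ratio passed the 2-fold limit in opposite directions in the shNS and the shDis3l2 line. tRNA-Val-AAC-1-1 had a log2 ratio of −1.07 in the shNS pair (32.2 CPM in EVs and 67.7 CPM in cells) and of 1.22 in the shDis3l2 pair (62.7 CPM in EVs and 26.9 CPM in cells). A transcript had a log2 ratio of 3.32 in the shNS pair (130 CPM in EVs and 13.1 CPM in cells) and of −1.17 in the shDis3l2 pair (48.7 CPM in EVs and 109.9 CPM in cells). With 1 library a side, the difference between the lines was not tested.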

How the results depend on the processing

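On the exon totals 13 whole RNAs were higher and 480 lower, 0 amino acid groups higher and 21 lower, and 1 anticodon family higher and 45 lower; on the intron totals 96 whole RNAs, 8 amino acid groups and 18 families were higher, and 2 groups and 5 families lower. Exon totals turned the log2 ratio of 19 amino acid groups, to −1.53 for Arg, −2.60 for Asn, −2.54 for Asp, −2.60 for Cys, −1.93 for Gln, −2.08 for Glu, −0.90 for Gly, −1.84 for His, −2.76 for Ile, −2.11 for Leu, −1.35 for Lys, −2.35 for Phe, −1.95 for Pro, −2.42 for SeC, −2.18 for Ser, −2.71 for Thr, −2.89 for Trp, −2.77 for Val and −2.64 for iMet. They also turned that of 6 abundant tRNAs, to −0.29 for tRNA-Arg-CCG-3-1, −1.74 for tRNA-Glu-CTC-1-1, −0.45 for tRNA-Gly-TCC-1-1, −1.84 for tRNA-His-GTG-2-1, −1.30 for tRNA-Lys-CTT-3-1 and −1.97 for tRNA-Pro-TGG-2-1, of 5 spliced tRNAs, to −2.40 for Arg-TCT-2-1, −2.40 for Leu-CAA-1-1, −2.11 for Leu-CAA-2-1, −2.62 for Leu-CAA-3-1 and −2.19 for Leu-CAA-4-1, and of ENSMUST00000083767, to −0.32. The cell exon total rests on the library that stood apart in its pieces. Within tRNA, 1 amino acid group was higher and 3 lower, 4 families were higher and 10 lower, and the ratio became −0.57 for Asn, −0.51 for Asp, −0.57 for Cys, −0.044 for Glu, −0.73 for Ile, −0.077 for Leu, −0.32 for Phe, −0.39 for SeC, −0.15 for Ser, −0.68 for Thr, −0.86 for Trp, −0.74 for Val and −0.61 for iMet. Counting unspliced forms alone, 1 amino acid group was lower. DESeq2 size factors left 0 families lower, TMM 3 and the shDis3l2 pair 0. With no minimum count 324 whole RNAs were higher. As a share of all rows, tRNA held 45.8% in EVs and 6.98% in cells, the 4.5S RNA 2.92% in EVs and 0.0993% in cells, and transcripts 12.2% in EVs and 43.8% in cells. Without the most abundant row of either library these were 74.4% and 15.9%, 6.23% and 0.245%, and 19.1% and 83.9%, EVs before cells. A minimum of 20 counts gave 27472 intron pieces higher and 490 lower, 221 exon pieces higher and 322 lower, and 5577 UTR pieces higher. The shDis3l2 pair had 2369 intron pieces higher and 4815 lower, and 221 exon pieces higher; on whole-RNA totals 239 exon pieces were higher and 7 lower; UTR pieces of transcripts not listed whole had 46 lower. In genes listed in both forms the unspliced share was 9.30% in EVs and 45.9% in cells. The edgeR fit called 134 to 200 RNAs higher and 269 to 304 lower when 1 library was left out; the 2 fits without a cell library assume that the lone one varies like the EVs. It called 167 to 204 higher and 303 to 318 lower with TMM, no filter or no covariate, and DESeq2 250 and 281. The labels give no replicate numbers; pairing EVs with cells of the same line, with the line as a block on the 4 parental libraries, edgeR called 176 higher and 294 lower on 1 residual degree of freedom. The shDis3l2 pair for amino acid groups, families and pieces, forms listed both ways, and totals without the most covered piece were chosen after seeing the data. The causes of these shifts were not tested.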
